A study of Mus musculus with 10 samples.

Results

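The BCL2 family balance was read from 10 genes of the intrinsic apoptosis pathway. They were the anti-apoptotic Bcl2, Bcl2l1 and Mcl1, the BH3-only Bcl2l11, Bmf, Bbc3, Pmaip1 and Bid, and the effectors Bax and Bak1. The 10 genes were found by symbol, through their Ensembl identifiers, among the 52550 genes of the deposited count table. A gene with under 10 counts over the 10 libraries was treated as not measured, which left 9 genes and removed Bak1.

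The anti-apoptotic proteins hold back the pore-forming effectors BAX and BAK at the outer mitochondrial membrane. BH3-only proteins are induced or activated by stress, occupy the groove of the anti-apoptotic proteins and can activate the effectors directly. When the effectors open the membrane, cytochrome c is released and caspases are activated, and in acute myeloid leukemia the dependence on BCL2 and MCL1 is a well known target of drugs.

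Hematopoietic stem and progenitor cells (HSPCs) were enriched from bone marrow of wild-type C57BL/6 mice of 8 to 20 weeks and transformed with a retrovirus carrying the MLL-AF9 fusion oncogene. All libraries also carried the repressor tetR-KRAB and 1 doxycycline (DOX) inducible lentiviral vector, which expressed miR-139 (MLL-AF9-i139) or eGFP (MLL-AF9-ieGFP). RNA depleted of ribosomal RNA was sequenced from 3 MLL-AF9-i139 clones and 1 MLL-AF9-ieGFP clone, each with and without 5 µg/mL DOX, and the design asks what miR-139 expression changes in these leukemia cells. DOX was given for 48 h to clones 1 and 2 and for 72 h to clone 3, so that clone and time cannot be told apart in MLL-AF9-i139, and the untreated libraries of these clones have no stated time.

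MLL-AF9-ieGFP was 1 clone, sampled at 48 h and at 72 h in each arm, so its 2 libraries per group are culture times and not separate clones. The 10 libraries held between 35133308 and 47089725 counts, and 3 counts corresponded to 0.0637 to 0.0854 CPM (counts scaled to a common library total). The induced gene itself could not be checked, since Mir139 was at 0 counts in all 10 libraries. Myeloid progenitor markers (Kit, Ptprc, Spi1, Mpo, Elane, Cebpa, Fcgr3 and Itgam) summed to 2078 to 3162 CPM in untreated and 3200 to 4969 CPM in DOX-treated MLL-AF9-i139 libraries, and Itgam was under the minimum, with 99.9% of its gene body inside another gene. In MLL-AF9-ieGFP the progenitor markers summed to 2193 to 2719 CPM without and 2506 to 3493 CPM with DOX. T cell markers reached at most 0.230 CPM, B cell markers 1.39 CPM, erythroid markers 2.69 CPM, megakaryocyte markers 2.98 CPM and stromal markers 0.209 CPM. The B cell gene Ms4a1 was at 0 counts in all libraries.

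The summed level of maturing neutrophil markers was 130 to 223 CPM in untreated and 193 to 361 CPM in DOX-treated MLL-AF9-i139 libraries, against 295 to 378 and 283 to 399 CPM in MLL-AF9-ieGFP. With clone as a block, 2 of the 7 neutrophil genes tested (Cxcr2 and Ngp) and 3 of the 7 myeloid progenitor genes tested (Spi1, Mpo and Fcgr3) passed an adjusted p of 0.05 and were higher (edgeR), where 12.4% of all genes tested were called. The other 5 neutrophil genes did not pass, and S100a9 had a log2 fold change of -0.01. Mpo was also higher with DOX at 48 h and 72 h in MLL-AF9-ieGFP (0.43 and 0.53 on the log2 scale), whereas Spi1 and Fcgr3 were not. Monocyte markers summed to 10.78 to 12.6 CPM without DOX and 10.7 to 28.5 CPM with DOX in MLL-AF9-i139, and with the block Csf1r was higher and Ccr2 lower, 2 of the 6 tested. The megakaryocyte marker Gp9 was also higher with the block (log2 fold change 2.74, adjusted p = 0.0278, edgeR), from a mean of 0.100 CPM without to 0.692 CPM with DOX, while Pf4 was under the minimum count. Mitochondrially encoded genes took 0.823% to 1.40% of the counts. The part of these markers in the results below was not tested, and in bulk RNA fewer cells of a type and less RNA per cell cannot be told apart.

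The inducible vector encodes miR-139, whose mature forms are shown because their seed (bases 2 to 8, in capitals) defines which letters a target could match. The sequences and positions are from RefSeq for GRCm38.p6, where miR-139-5p lies at chr7:101475382-101475403 and miR-139-3p at chr7:101475418-101475439, both on the plus strand.
mmu-miR-139-5p: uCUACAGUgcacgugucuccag
mmu-miR-139-3p: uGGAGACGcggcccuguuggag

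Seed matches of 7 or 8 bases were searched in the longest annotated 3′ UTR of each gene (GENCODE M21, GRCm38). The letters were ACTGTAGA for miR-139-5p and CGTCTCCA for miR-139-3p, each in full or without its first or last base, on the transcript strand only. Bcl2, Mcl1, Bcl2l11, Bmf, Bbc3, Pmaip1 and Bak1 held a match for miR-139-5p, which is 7 of 10 members against 21.7% of the 13995 tested genes with an annotated 3′ UTR. Bcl2, Bcl2l11 and Bmf also held 1 match each for miR-139-3p, which 15.9% of the tested genes did. A match for either form was held by 31.8% of the tested genes. Bcl2l1, Bid and Bax held none for either mature form. The 3′ UTR of Bcl2 runs over 5086 bases and those of Bcl2l11 and Bmf over 4218 and 3801 bases, against a median of 1092 bases, so more letters were searched in these members.

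Bcl2 held 2 full 8-base matches, which 0.279% of the genes did, at positions 772 to 779 and 1184 to 1191 after the stop codon. Mcl1 held a 7-base match at 121 to 127, Bcl2l11 at 1686 to 1692 and Bmf at 2640 to 2646. The sites of these 4 genes are shown in capitals, since they can be set beside the changes of the same genes.
Bcl2, first site: cttaagccctgACTGTAGAtaatcatatat
Bcl2, second site: agacacttgccACTGTAGAgaggagaacgc
Mcl1: agtccagttctACTGTAGcaacatagcaaa
Bcl2l11: ttgcttttggcCTGTAGAaagccagtggtt
Bmf: gctggaaaactCTGTAGAaatgccctagag
A match says only that these letters are present.

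Per kilobase of exon, Mcl1 was the most abundant member in untreated MLL-AF9-i139 cells, at 44.4 ± 1.85 CPM per kb (SD, n = 3). Bax followed at 26.6 ± 2.05, Bid at 19.6 ± 2.24, Pmaip1 at 16.3 ± 1.55 and Bcl2l1 at 11.6 ± 0.755 CPM per kb. Bbc3 (5.02 ± 0.361), Bcl2l11 (3.61 ± 0.497) and Bcl2 (2.99 ± 0.145) were lower, and Bmf was lowest at 0.680 ± 0.0614 CPM per kb. Of the 9 measured members only Bmf was below Bcl2 on this scale. Since the RNA was not selected for poly(A), reads of unspliced RNA enter these levels, and dividing by exon length is only an approximate scale between genes.

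**Figure D1:**
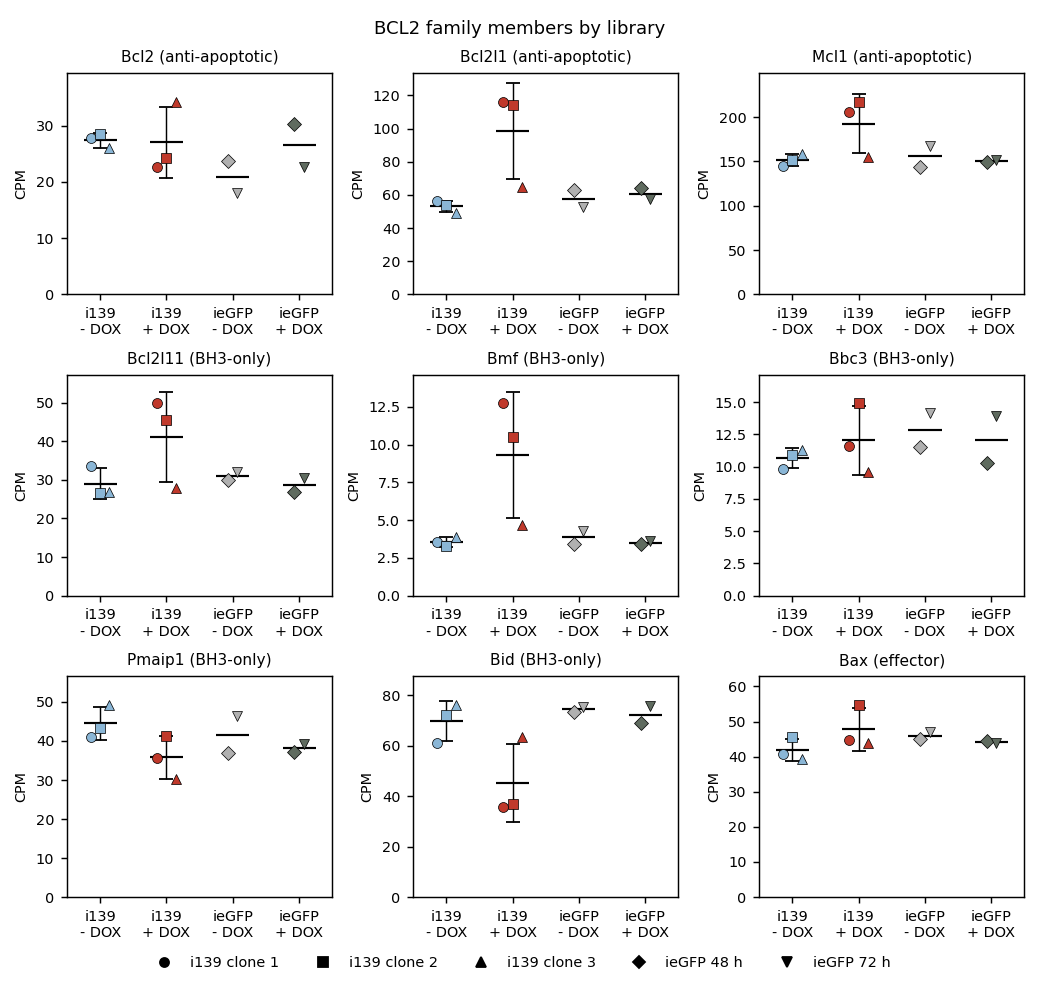
Normalized CPM of the 9 measured members (y axis, from 0) in the 4 groups (x axis), with 1 point per library, a line at the group mean and error bars of 1 SD for the MLL-AF9-i139 groups (n = 3). Bcl2l1 and Bmf of all 3 DOX-treated MLL-AF9-i139 libraries lie above all 3 untreated ones, and clone 3 lies closest to the untreated libraries for Bcl2l1, Bmf, Mcl1, Bcl2l11 and Bid.

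With DOX, Bcl2l1, Bmf, Bcl2l11 and Bax were higher and Bid and Pmaip1 lower in every MLL-AF9-i139 clone compared with itself. Of these, Bcl2l1, Bmf and Bid passed the threshold with clone as a block, and none passed without it (edgeR). With clone as a block, 3 of 9 members passed an adjusted p of 0.05 (2 higher, 1 lower, edgeR quasi-likelihood test), where 12.4% of all 19223 genes tested were called. Without the block, 0 of 9 passed and 0.0624% of all genes did, although 5 of the 9 members and 3959 of the 19223 genes had an unadjusted p under 0.05. DESeq2 without the block called Bcl2l1 and Bmf, both higher, and 8.09% of all genes. Groups without overlap were found for 2 of 9 members, again Bcl2l1 and Bmf, against 24.9% of all genes, so that a separation of this kind was about as frequent among the members as among genes at large.

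Clone 3, the clone treated for 72 h, changed least for most members. Without it, 5 of 9 members passed without the block (4 higher, 1 lower, edgeR), where 21.7% of the 18359 genes tested were called. These were Bcl2l1, Mcl1, Bcl2l11, Bmf and Bid. All 9 members were tested in each of these fits.

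Bcl2l1 (ENSMUSG00000007659, chromosome 2, 152780668 to 152831728, GRCm38) encodes BCL-XL, which binds BH3-only proteins and effectors. It stood at 56.1, 54.0 and 49.4 CPM without DOX and at 116, 114 and 65.1 CPM with DOX in clones 1, 2 and 3. In MLL-AF9-ieGFP it was at 62.9 and 52.8 CPM without DOX and 63.9 and 57.4 CPM with DOX, at 48 h and 72 h. The 3 treated MLL-AF9-i139 libraries were higher than all other 7 libraries, clone 3 by the smallest distance. The log2 fold change was 0.90 (SE 0.21, adjusted p = 0.105, edgeR), and 0.86 (SE 0.15, adjusted p = 0.0250, edgeR) with clone as a block. By clone, the log2 change was 1.05, 1.08 and 0.40.

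Mcl1 (ENSMUSG00000038612, chromosome 3, 95658788 to 95663176) encodes a short-lived anti-apoptotic protein on which many myeloid cells depend. Its level was 145, 151 and 158 CPM without and 206, 217 and 155 CPM with DOX in clones 1, 2 and 3. In MLL-AF9-ieGFP it ranged from 144 to 168 CPM over the 4 libraries. Clones 1 and 2 with DOX were above the other 8 libraries, whereas treated clone 3 lay among the untreated ones. The log2 fold change was 0.36 (SE 0.14) with an adjusted p of 0.196, and of 0.109 with clone as a block (edgeR), and it was 0.53 (SE 0.087, adjusted p = 0.00510, edgeR) without clone 3.

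Bcl2 (ENSMUSG00000057329, chromosome 1, 106538178 to 106714274) encodes the founding anti-apoptotic protein of the family. It stood at 27.8, 28.5 and 25.9 CPM without and 22.6, 24.2 and 34.2 CPM with DOX. The MLL-AF9-ieGFP libraries held 23.7 and 18.02 CPM without and 30.3 and 22.7 CPM with DOX. The groups overlapped, since clones 1 and 2 were lower with DOX and clone 3 was higher, as were both times of MLL-AF9-ieGFP. The log2 fold change was -0.01 (SE 0.17, 95% interval -0.39 to 0.37, adjusted p = 0.978, edgeR). Other genes cover 15.9% of its exon bases.

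Among the BH3-only genes, Bmf showed the largest relative change. Bmf (ENSMUSG00000040093, chromosome 2, 118528757 to 118549687) encodes a sensor that is released from the cytoskeleton when cells are stressed or detach. Its level was 3.55, 3.26 and 3.90 CPM without and 12.7, 10.5 and 4.65 CPM with DOX in clones 1, 2 and 3. The 4 MLL-AF9-ieGFP libraries ranged from 3.44 to 4.29 CPM. Treated clones 1 and 2 were 3.55-fold and 3.20-fold above their own untreated libraries, and treated clone 3 was 1.19-fold above its own and the next highest of all libraries. Its log2 fold change was 1.40 (SE 0.35, adjusted p = 0.114, edgeR), and 1.30 (SE 0.31, adjusted p = 0.0415, edgeR) with clone as a block.

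Bcl2l11 (ENSMUSG00000027381, chromosome 2, 128126038 to 128162547) encodes BIM, which binds all anti-apoptotic family members and is required for the death of many blood cells. It stood at 33.6, 26.5 and 26.9 CPM without and 49.8, 45.5 and 28.0 CPM with DOX. MLL-AF9-ieGFP held 26.7 to 32.0 CPM over its 4 libraries. Each clone was higher with DOX than without, but treated clone 3 lay below untreated clone 1, so the groups overlapped. In the test, its log2 fold change was 0.52 (SE 0.22) with an adjusted p of 0.231, and of 0.0699 with clone as a block (edgeR).

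Bid (ENSMUSG00000004446, chromosome 6, 120891930 to 120916853) encodes the BH3-only protein that caspase-8 cleaves and that links death receptors to mitochondria. It was at 60.8, 72.1 and 76.1 CPM without and 35.6, 37.0 and 63.2 CPM with DOX. In MLL-AF9-ieGFP it ranged from 68.9 to 75.6 CPM. Every clone was lower with DOX, clones 1 and 2 below all other libraries, and treated clone 3 between untreated clones 1 and 2. The log2 fold change was -0.61 (SE 0.22, adjusted p = 0.182, edgeR), and -0.66 (SE 0.13, adjusted p = 0.0311, edgeR) with clone as a block. Other genes cover 17.7% of its exon bases.

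Pmaip1 (ENSMUSG00000024521) encodes NOXA, a BH3-only protein that binds MCL1 in preference to other partners and is a known p53 target. It ranged from 41.1 to 49.3 CPM without and from 30.3 to 41.3 CPM with DOX in MLL-AF9-i139, and from 37.0 to 46.4 CPM in MLL-AF9-ieGFP. The groups touched, since treated clone 2 was just above untreated clone 1, and here clone 3 had the largest change (-0.70 on the log2 scale, against -0.20 and -0.07). For Pmaip1 the log2 fold change was -0.30 (SE 0.14, adjusted p = 0.274, edgeR).

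Bbc3 (ENSMUSG00000002083, chromosome 7, 16308393 to 16318205) encodes PUMA, another p53 target that binds every anti-apoptotic member. It stood at 9.82, 10.9 and 11.3 CPM without and 11.6, 14.9 and 9.63 CPM with DOX, and at 10.2 to 14.1 CPM in MLL-AF9-ieGFP. Clones 1 and 2 were higher and clone 3 lower with DOX. For Bbc3 the log2 fold change was 0.19 (SE 0.19, 95% interval -0.25 to 0.63, adjusted p = 0.610, edgeR).

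Of the effectors, only Bax was measured. Bax (ENSMUSG00000003873, chromosome 7, 45461697 to 45466898) was at 40.9, 45.5 and 39.2 CPM without and 44.8, 54.8 and 43.8 CPM with DOX, and at 43.7 to 46.9 CPM in MLL-AF9-ieGFP. Each MLL-AF9-i139 clone was higher with DOX, with log2 changes of 0.13, 0.27 and 0.16, while the groups overlapped. For Bax the log2 fold change was 0.20 (SE 0.13) with an adjusted p of 0.391, and of 0.154 with clone as a block (edgeR). Another annotated gene covers 52.0% of the exon bases of Bax, so its level depends on how shared reads were counted, which the sources used here do not state.

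Bak1 (ENSMUSG00000057789, chromosome 17, 27019810 to 27029009, minus strand) was at 0 counts in all 10 libraries. All of its body lies inside Ggnbp1 on the opposite strand, which held 403 to 698 counts. Reads that fall on both genes cannot be told apart by position alone, so the 0 is not a measurement of Bak1, and every effector value here rests on Bax.

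**Figure D2:**
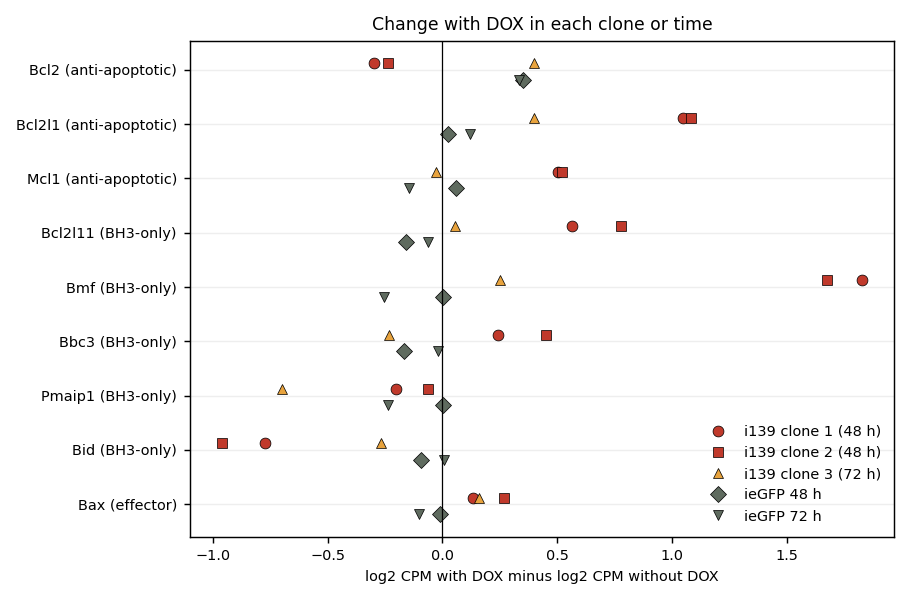
Log2 CPM with DOX minus log2 CPM without DOX (x axis) of each measured member (y axis), with 1 point per MLL-AF9-i139 clone and per MLL-AF9-ieGFP time. Clones 1 and 2 lie close together, clone 3 lies nearer to 0 for Bcl2l1, Mcl1, Bcl2l11, Bmf and Bid and farther from it for Pmaip1, and the MLL-AF9-ieGFP points lie between -0.26 and 0.35.

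In MLL-AF9-ieGFP, which carries eGFP in place of miR-139, 0 of 9 members and 0% of the 20269 genes tested were called (edgeR, all 4 groups in 1 fit). At an unadjusted p under 0.05 these were 0 members and 259 genes, and DESeq2 called 0 members and 1 gene. The log2 fold changes of the members ran from -0.14 (Bmf) to 0.34 (Bcl2). For Bcl2l1 the value was 0.07 with a 95% interval of -0.44 to 0.57, and for Bmf -0.14 with an interval of -0.97 to 0.70. With 2 libraries per group and 1 spread estimated over all 4 groups, changes within these intervals were not excluded.

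The difference between the DOX responses of both constructs was tested as an interaction. It called 0 of 9 members and 0.00493% of the 20269 genes (edgeR). At an unadjusted p under 0.05 it held 2 members, Bcl2l1 (0.82 on the log2 scale, 95% interval 0.17 to 1.47) and Bmf (1.52, 0.44 to 2.59), both with an adjusted p of 0.527, among 1859 genes. DESeq2 called 82 genes and 0 members for the interaction, and edgeR with clone and time as a block called 38 genes and 0 members. Without clone 3, 5 members passed (Bcl2l1, Mcl1, Bcl2l11, Bmf and Bid, edgeR), where 10.2% of the 19753 genes tested were called. This fit holds 2 MLL-AF9-i139 clones, both treated for 48 h, and 1 MLL-AF9-ieGFP clone, so that construct and clone cannot be told apart in it.

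The balance between the roles was summarized per library as the ratio of summed CPM per kb of exon, a description with no test. The anti-apoptotic sum was 57.8, 59.2 and 59.8 CPM per kb without and 88.0, 91.1 and 63.3 CPM per kb with DOX in clones 1, 2 and 3. The BH3-only sum was 41.7, 45.2 and 48.9 without and 37.2, 40.2 and 37.8 CPM per kb with DOX. In MLL-AF9-ieGFP the anti-apoptotic sum went from 58.3 to 61.1 at 48 h and from 62.6 to 59.5 CPM per kb at 72 h with DOX, and the BH3-only sum from 44.0 to 41.8 and from 49.6 to 46.7 CPM per kb. The BH3-only sum was thus lower with DOX at both times of the control construct too. In every MLL-AF9-i139 clone the anti-apoptotic sum was higher and the BH3-only sum lower with DOX, and in clone 3 the lower BH3-only sum was the larger of both shifts. These sums hold only the chosen members. The BH3-only gene Bad had a mean of 19.7 CPM without and 31.7 CPM with DOX in MLL-AF9-i139. The anti-apoptotic gene Bcl2a1a had 8.49 and 20.9 CPM. Neither is in the sums, and whether the sums keep their direction with them was not tested.

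**Figure D3:**
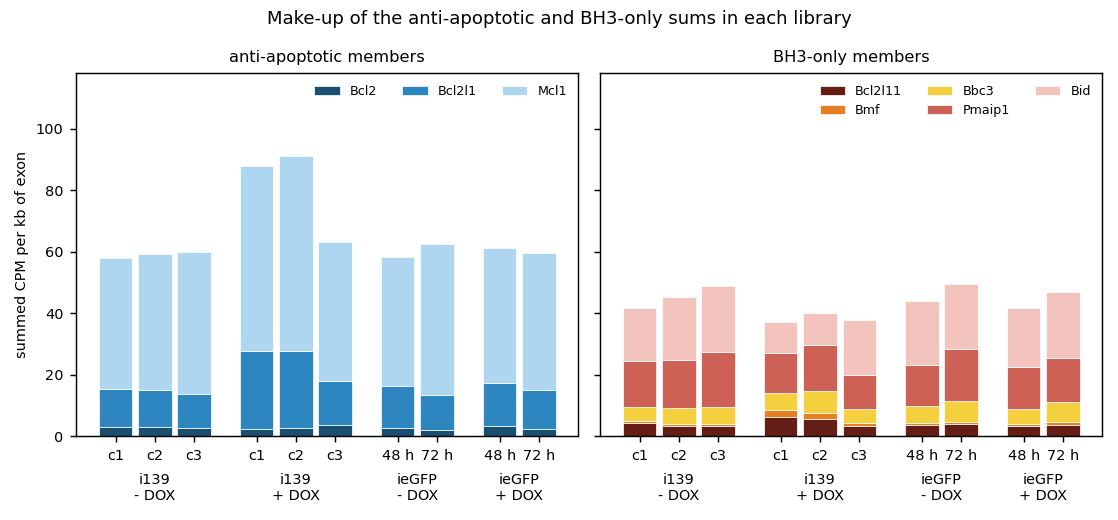
Summed CPM per kb of exon (y axis, from 0) of the anti-apoptotic members (left) and the BH3-only members (right) in each library (x axis, c1 to c3 are clones 1 to 3), split by member. Bcl2l1 and Mcl1 make the higher anti-apoptotic bars of treated clones 1 and 2 (88.0 and 91.1), while the pale Bid segment is shortest in the same libraries.

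The make-up of each sum also differed. Mcl1 gave 73.6% to 77.3% of the untreated anti-apoptotic sum in MLL-AF9-i139 and 68.5% to 71.7% of the treated one, while the share of Bcl2l1 was 17.98% to 21.2% without and 22.4% to 28.7% with DOX. Bid gave 41.1% to 45.0% of the untreated BH3-only sum and 25.9% to 47.1% of the treated one. The share of Bmf was 1.37% to 1.62% without and 2.34% to 6.51% with DOX, and that of Bcl2l11 6.86% to 10.05% and 9.21% to 16.7%. Bbc3 gave 10.9% to 11.3% without and 11.99% to 17.4% with DOX. The shares of Mcl1, Bcl2l1, Bmf and Bbc3 did not overlap between treated and untreated MLL-AF9-i139 libraries, whereas those of Bid, Bcl2l11, Pmaip1 and Bcl2 did. In untreated MLL-AF9-ieGFP, Bbc3 (12.3% to 13.4%) and Bcl2l1 (18.4% to 23.5%) reached into the treated MLL-AF9-i139 ranges. Mcl1 (72.05% to 78.5%) and Bmf (1.49% to 1.65%) did not. In clone 3 the CPM of Bbc3 was lower with DOX, so its larger share came with a smaller BH3-only sum.

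The ratio of anti-apoptotic to BH3-only levels, summed over the same members only, was 1.39, 1.31 and 1.22 without and 2.37, 2.26 and 1.67 with DOX. All 3 treated libraries were above the 3 untreated ones and above the 4 MLL-AF9-ieGFP libraries, which held 1.26 to 1.46. The log2 change was 0.77, 0.79 and 0.45 by clone, a mean of 0.67 ± 0.19 (SD, n = 3 clones), against 0.14 at 48 h and 0.01 at 72 h in MLL-AF9-ieGFP. Summed this way, abundant members weigh most. With each member given the same weight on the log2 scale, the mean change was 0.20 ± 0.20, against 0.23 and 0.22 in MLL-AF9-ieGFP, so that the constructs were not separated on that scale.

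Ratios to Bax were also formed. Anti-apoptotic levels over Bax were 2.23, 2.05 and 2.40 without and 3.10, 2.62 and 2.28 with DOX, a log2 change of 0.47, 0.35 and -0.08 by clone. BH3-only levels over Bax were 1.61, 1.57 and 1.96 without and 1.31, 1.16 and 1.36 with DOX, lower in each clone by -0.30, -0.44 and -0.53 on the log2 scale (mean -0.42 ± 0.12, SD, n = 3), and without overlap between the groups. In MLL-AF9-ieGFP the latter changed by -0.07 and 0.01. With equal weights its mean change was -0.01 ± 0.29, as Bmf then weighs as much as Bid. Bax over Bcl2 was 8.56, 9.27 and 8.79 without and 11.5, 13.2 and 7.46 with DOX, a log2 change of 0.43, 0.50 and -0.24 by clone, against -0.36 and -0.43 in MLL-AF9-ieGFP. Clone 3 and both times of the control construct thus went one way and clones 1 and 2 the other.

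**Figure D4:**
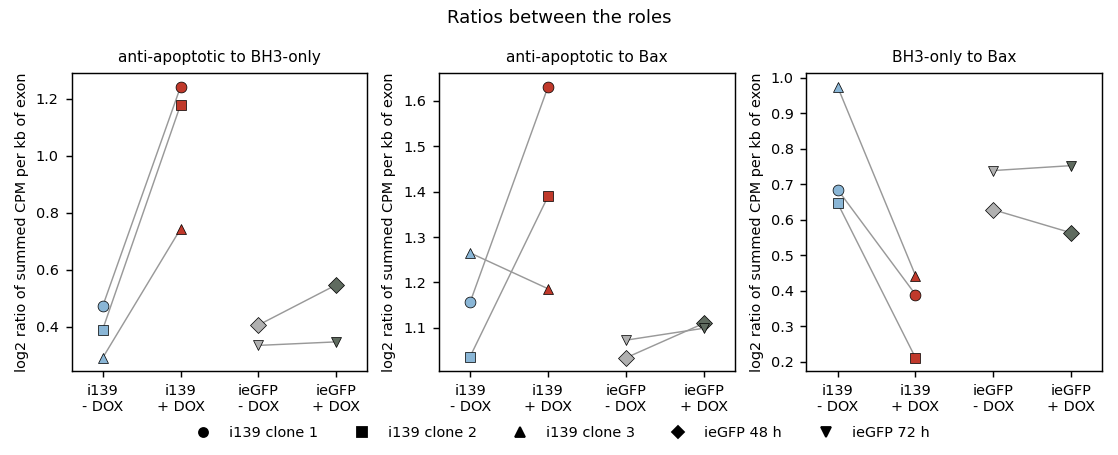
Log2 of the ratio of summed CPM per kb of exon (y axes, not starting at 0) for 3 pairs of roles, with 1 point per library and lines joining the libraries of the same clone or time. Anti-apoptotic to BH3-only levels are higher and BH3-only to Bax levels lower with DOX in all 3 MLL-AF9-i139 clones, while clone 3 goes the other way for anti-apoptotic to Bax.

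Other genes of the pathway were counted by lists. Each list had 0 calls without the block (edgeR), and with clone as a block 15 of the 55 genes tested passed an adjusted p of 0.05, where 12.4% of all genes tested were called. Among the 10 other BCL2 family genes tested, 3 were higher and 0 lower. They included Bcl2a1a (log2 fold change 1.32, adjusted p = 0.0173, edgeR with block), an anti-apoptotic gene of granulocytes. Its near copies Bcl2a1b and Bcl2a1d were under the minimum count, so that reads may be shared. Other genes cover 98.0% of the body of Bcl2a1b and 100% of that of Bcl2a1d, so their counts are limited in the same way as that of Bak1. Also higher in this fit were the BH3-only gene Bad (0.68, adjusted p = 0.0281) and the little expressed Bcl2l15 (0.82, adjusted p = 0.0412). The median log2 fold change of this list was 0.47, against 0.20 for the 9 members and 0.01 for all genes tested.

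Among the 16 genes of the apoptosome and caspases, 3 were higher and 3 lower with the block. The genes of the ubiquitin ligase Birc3 (0.65, adjusted p = 0.0363) and the caspase-9 platform Apaf1 (0.34, adjusted p = 0.0444) were among the higher ones. Cycs, which encodes the cytochrome c that the effectors release (-0.67, adjusted p = 0.0205), the mitotic survivin gene Birc5 (-0.44, adjusted p = 0.0345) and the mitochondrial nuclease gene Endog (-0.87, adjusted p = 0.0492) were lower. The other 10 did not pass, and the list median was 0.20. Other genes cover 100% of the body of Diablo, whose level is limited in the same way as that of Bax.

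Against the same 12.4% of all genes, 2 of 9 death receptor genes were higher with the block, the TNF receptor genes Tnfrsf1a (0.60, adjusted p = 0.0359) and Tnfrsf1b (0.44, adjusted p = 0.0282), with a list median of 0.28. Of 9 genes for the mitochondrial membrane and MCL1 turnover, 1 was lower, the inner membrane fusion gene Opa1 (-0.32, adjusted p = 0.0498), with a median of -0.17, a share near that of all genes and no result about this list. Of 11 genes upstream of BH3-only genes, Trp53inp1, a p53 cofactor (1.74, adjusted p = 0.0238), and the transcription factor gene Foxo3 (0.89, adjusted p = 0.0282) were higher and the dynein light chain gene Dynll2 (-0.59, adjusted p = 0.0339), whose protein tethers BMF, was lower. Trp53 itself had a log2 fold change of -0.03 (adjusted p = 0.833, edgeR with block). The list median was -0.03. In MLL-AF9-ieGFP 0 genes of these lists were called.

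**Figure D5:**
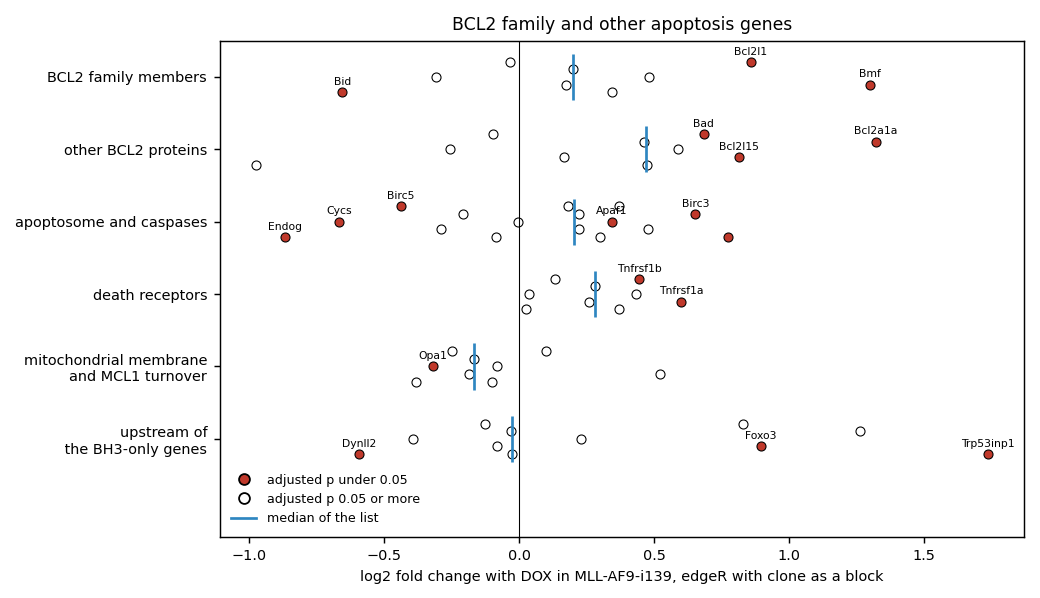
Log2 fold change with DOX in MLL-AF9-i139 (x axis, edgeR with clone as a block) for the 9 measured members and 5 lists of apoptosis genes (y axis), filled where the adjusted p is under 0.05 (all but 1 of these with its name), with a bar at the list median. Called genes of the BCL2 lists lie on both sides of 0 for the members and above 0 for the other BCL2 family genes, and those of the apoptosome list lie on both sides.

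Promoter windows of 300 bases around annotated starts were held by RefSeq (GRCm38.p6) for 9 of the 10 members, 16 windows in all. The FOXO motif GTAAACA, searched on both strands, was present in 2 windows, 1 of Bcl2l11 and 1 of Bbc3, and in 3.65% of all 32851 windows. The motif TTCNNNGAA of STAT factors was in 0 of the 16 and in 8.30% of all windows, and the E-box CACGTG was in 2, of Bbc3 and Bax, and in 7.15%. The Bcl2l11 window (chr2:128125788-128126087, plus strand) is shown with its FOXO match in capitals. Foxo3, whose product is known to bind this gene in other cells, was higher with clone as a block. In the same fit Bcl2l11 (log2 fold change 0.48, adjusted p = 0.0699) and Bbc3 (0.17, adjusted p = 0.503, edgeR) did not pass. A link between Foxo3 and these genes was not tested.
Bcl2l11 promoter: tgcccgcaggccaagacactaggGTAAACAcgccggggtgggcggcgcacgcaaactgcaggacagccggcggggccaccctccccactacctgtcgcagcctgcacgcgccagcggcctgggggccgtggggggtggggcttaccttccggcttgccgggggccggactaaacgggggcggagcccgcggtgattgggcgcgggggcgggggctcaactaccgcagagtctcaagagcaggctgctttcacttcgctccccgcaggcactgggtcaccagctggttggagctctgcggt
It ends 50 bases after the annotated start and has 71.0% G and C, against a median of 52.7% over all windows.

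The genes whose level was most like that of Bcl2l1 over the 10 libraries were Abr (Pearson r = 0.990), Ctns (0.990), Pgam2 (0.989), Ggh (0.988) and Copg2 (0.986), out of 10672 genes with an average log2 CPM of at least 1. The libraries share clones and treatment, and treated clones 1 and 2 stand apart from the rest, so these values describe the pattern and carry no test. The log2 fold changes with DOX of these 5 genes ran from 0.34 (Copg2) to 0.97 (Pgam2) in MLL-AF9-i139, and none passed without the block (adjusted p from 0.118 to 0.156, edgeR).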

How the data were processed

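Libraries were prepared by the authors from total RNA with ribosomal RNA depletion. Per the labels, the deposited values are raw read counts per gene, made with FastQC 0.11.8, STAR 2.5.3e, featureCounts 1.6.0 and MultiQC on GRCm38 with GENCODE M15. The submitters' processing notes also name DESeq2 1.22.2. The strand setting and the treatment of reads on overlapping genes are not given in the sources used here. The 10 libraries stand in 2 deposited tables, which differed in 0 values, and 14 columns of other samples in the larger table were not used.

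Groups came from the labels. Genes with at least 10 counts in total were tested with edgeR 4.0.16 (quasi-likelihood, TMM, Benjamini-Hochberg over all genes tested, threshold 0.05) with no clone term on the 6 libraries of MLL-AF9-i139, and on all 10 libraries for MLL-AF9-ieGFP and the interaction. CPM were scaled by TMM factors, and log2 CPM used a prior count of 2. Levels per kb divide by merged exon length in GENCODE M21 (GRCm38). The clone is the same in both arms, so clone pairs the libraries. Over 19223 genes the deviations of same-clone libraries from their group means correlated at 0.381, 0.288 and 0.414. The mean for different clones was -0.179. This value largely follows from the same-clone values, since the deviations sum to 0 within each arm, and is no separate comparison. As clone pairs the libraries by design, the blocked value is given where it changes a call. DESeq2 1.42.0, other filters and scalings, and leaving out each clone were alternatives, and the scripts were tested on simulated data. Intervals use the 95% t quantile of each fit. P-values for MLL-AF9-i139 without the block cover the spread between its clones, mixed with that between 48 h and 72 h of DOX. With the block they cover the spread of the DOX change over the clones, mixed in the same way. For MLL-AF9-ieGFP and the interaction they rest on 1 spread estimated over all 4 groups. The spread between the MLL-AF9-i139 clones enters this estimate together with that between 2 culture times of 1 MLL-AF9-ieGFP clone. The spread between MLL-AF9-ieGFP clones was not measured.

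The members, the lists and the markers were chosen with earlier results of these data known. All members are named, and of each list the genes with an adjusted p under 0.05 with or without the block, at most 8, except 1 gene that is not reported here. The 5 genes most like Bcl2l1 were ranked by Pearson r. Gene identifiers matched the annotation for 52403 of 52550 genes.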

Additional observations from a re-analysis of the deposited data

Results flagged for a closer look

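For Bcl2l11 and Bax, all 3 MLL-AF9-i139 clones were higher with DOX and both MLL-AF9-ieGFP times were lower. The DOX response of Bcl2l11 was larger in MLL-AF9-i139 by 0.61 on the log2 scale (95% interval -0.05 to 1.27, adjusted p = 0.569, edgeR interaction). That of Bax was larger by 0.25 (-0.13 to 0.62, adjusted p = 0.659). Neither passed the threshold. The MLL-AF9-ieGFP changes were small (-0.16 and -0.06 for Bcl2l11, -0.01 and -0.10 for Bax), and clone 3 moved Bcl2l11 by 0.05. Without clone 3 the difference was 0.81 for Bcl2l11 (adjusted p = 0.0184) and 0.29 for Bax (adjusted p = 0.3003, edgeR). Over the alternatives the difference ran from 0.47 to 0.81 for Bcl2l11 (adjusted p from 0.0184 to 0.949) and from 0.20 to 0.32 for Bax (0.3003 to 0.949).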

How the results depend on the processing

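Calls depended on how the spread between clones was treated, and the cause was not tested unless stated. The number of members higher with DOX, 0 in edgeR without a block, was 2 with DESeq2, 2 with at least 1 count in total as the only filter, 2 with the clone as a block and 2 in the fit of all 10 libraries, and 0 to 4 when a clone was left out. The number lower, 0, was 1 with the block and 0 to 1 when a clone was left out. With all 10 libraries and clone and time as a block, Bcl2l1, Mcl1, Bcl2l11 and Bmf were higher and Bid lower in MLL-AF9-i139. Their adjusted p were 0.00234, 0.0480, 0.0215, 0.00757 and 0.00431 (edgeR), and the other members did not pass. DESeq2 on all 10 libraries called Bcl2l1 and Bmf higher and Bid lower (adjusted p = 0.0235 for Bid). The shares of all genes called in these fits are not given here. Over the 5 lists 0 genes were called without a block, 9 with DESeq2, 5 with at least 1 count in total, 15 with the block, 10 with all 10 libraries and 0 to 24 when a clone was left out. With the alternatives chosen after seeing the data, DESeq2 with the clone as a block gave 3 higher and 1 lower members and 16 list genes. The blocked edgeR fit without clone 1 gave 0 higher members and 4 list genes, without clone 2 it gave 1 and 4, and without clone 3 it gave 6 higher, 2 lower and 36, the last with 1 residual degree of freedom from 4 libraries. The interaction called 0 members and 0 to 5 when a library pair was left out, 5 without clone 3. The block changed no call of a member in MLL-AF9-ieGFP or in the interaction, although over all genes the interaction called 1 gene without and 38 with it. The ratio of anti-apoptotic to BH3-only levels changed by 0.20 with equal weights and by 0.95 without Mcl1, and BH3-only over Bax by -0.0099 with equal weights. The Bcl2 fold change, near 0, turned to 0.10 without clone 1 and 0.09 without clone 2, to 0.0815 and 0.0609 without the same clones with the block, with a range of -0.2479 to 0.10 when a clone was left out. The Pmaip1 interaction ran from -0.3251 to 0.0245 when a library pair was left out, the latter without clone 3. Over the alternatives, 60 of the summary results were classed as unchanged and 25 as moved. Of the single-gene results, 170 kept their direction and side of the threshold, 32 kept their direction and passed it, and 5 reversed.

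Depth did not limit the 9 measured members, which all lay far above the 3-count floor, but Bak1 and the exon overlap of Bax limit every effector value.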

Other observations

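Ratios per kb of exon between pairs of members are given as values without a test, since these pairs were chosen after the values of the members were seen. The products of Mcl1 and Pmaip1 and of Bcl2l1 and Bcl2l11 are known as binding pairs. Bmf over Bid and Bcl2l1 over Bcl2 each compare members of the same role. Mcl1 over Pmaip1, the gene of its preferred BH3-only partner NOXA, was 2.83, 2.80 and 2.56 without and 4.603, 4.20 and 4.09 with DOX in clones 1, 2 and 3 of MLL-AF9-i139. The log2 change was 0.65 ± 0.06 (SD, n = 3 clones), against 0.06 at 48 h and 0.09 at 72 h in MLL-AF9-ieGFP. In clone 3, where Mcl1 was at 158 CPM without and 155 CPM with DOX, the change lay in Pmaip1.

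Bcl2l1 over Bcl2l11 was 2.92, 3.57 and 3.21 without and 4.08, 4.40 and 4.07 with DOX, a log2 change of 0.38 ± 0.09 (SD, n = 3 clones), against 0.18 and 0.19 in MLL-AF9-ieGFP. Bmf over Bid was 0.0394, 0.0306 and 0.0347 without and 0.242, 0.192 and 0.0497 with DOX, whereas the control construct held 0.0317 and 0.0386 untreated and 0.0338 and 0.0321 treated (48 h and 72 h). Bcl2l1 over Bcl2 was 4.04, 3.78 and 3.80 without and 10.26, 9.43 and 3.80 with DOX, so that clone 3 held the same ratio in both arms. The control construct held 5.30 and 5.85 untreated and 4.22 and 5.05 treated, lower with DOX at both times and above treated clone 3.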
